A study of Mus musculus with 21 samples.

Results

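The expression of 10 inflammatory genes was examined in the midbrain of male C57BL/6 mice given the neurotoxin MPTP and the hormone irisin. The genes were picked by name and comprised the cytokines Il1b, Tnf and Il6, the chemokines Ccl2, Ccl3, Ccl4 and Cxcl10, the inhibitors of NF-kB signaling Nfkbia and Tnfaip3, and the prostaglandin synthase Ptgs2. All 10 were found in both deposited RNA-seq tables, among 33829 genes of a pre-treatment experiment and 55385 genes of a delayed treatment experiment. The pre-treatment experiment held 9 mice in 3 groups of 3. Control mice received ddH2O for 10 days, MPTP mice received ddH2O for 5 days and then MPTP for 5 days, and irisin pre-treated mice received irisin for 5 days and then MPTP for 5 days. The delayed treatment experiment held 12 mice in 4 groups of 3. Its controls received ddH2O for 10 days, the irisin group ddH2O and then irisin, the MPTP group MPTP and then ddH2O, and the last group MPTP and then irisin, 5 days of each. The daily doses were 30 mg/kg of MPTP and 200 ug/kg of irisin, all injections were intraperitoneal, and the labels give an age of 6 weeks for every mouse. MPTP is converted in the brain to a toxin that enters dopaminergic neurons and blocks mitochondrial complex I. Irisin is a hormone cleaved from FNDC5, a membrane protein of muscle. No group of the pre-treatment experiment received irisin alone, and the MPTP mice of the delayed experiment had at least 5 days without toxin before tissue was taken.

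NF-kB is a family of dimeric transcription factors that is held in the cytoplasm by inhibitor proteins of the IkB family. Signals from Toll-like receptors, the interleukin-1 receptor or the TNF receptor lead to phosphorylation and breakdown of IkB, and the freed dimers enter the nucleus and start transcription of cytokines, chemokines and adhesion molecules. Among the targets are Nfkbia, which encodes the inhibitor IkB-alpha, and Tnfaip3, which encodes the ubiquitin-editing enzyme A20, so that both act as negative feedback and their transcripts are common readouts of the pathway. In the brain, microglia are the main source of Il1b, Tnf and the CC chemokines, whereas Nfkbia is transcribed in many cell types and Ptgs2 is strongly expressed by active neurons. In bulk tissue, fewer cells of a type and less RNA per cell cannot be told apart.

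Where a promoter was listed, its letters were searched on both strands for the NF-kB (kB) consensus motif over the 250 bases before the start of transcription. RefSeq promoters of build GRCm38.p6 were listed for 8 of the 10 genes, and the exceptions were Ccl2 and Ccl4. The consensus was found in 1281 of 32851 promoters (3.90%). Of the 9 promoters listed for the 8 genes it was found in 4, 1 each of Nfkbia, Tnfaip3, Cxcl10 and Il6. A second promoter of Tnfaip3 (chr10:19011914-19012213) did not hold the consensus. The windows of 30 bases that hold it are shown 5′ to 3′ on the strand of the gene, because they match the motif that NF-kB dimers are known to bind, and the match is in capitals. They lie at chr12:55492657-55492686 (minus strand) for Nfkbia, chr10:19015516-19015545 and chr10:19015411-19015440 (minus) for Tnfaip3, chr5:92349029-92349058 and chr5:92348973-92349002 (minus) for Cxcl10, and chr5:30013060-30013089 (plus) for Il6.
Nfkbia: tgactggcttGGAAATTCCCcgcgcctgac
Tnfaip3, distal: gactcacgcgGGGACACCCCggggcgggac
Tnfaip3, proximal: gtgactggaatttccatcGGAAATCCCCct
Cxcl10, distal: agaggggagaGGGAAATTCCaagttcatgg
Cxcl10, proximal: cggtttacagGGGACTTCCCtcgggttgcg
Il6: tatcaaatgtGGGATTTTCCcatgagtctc
In Nfkbia the match began 29 bases before the start, and there and in the proximal window of Tnfaip3 it was read on the opposite strand. The AP-1 core TGANTCA, bound by Fos and Jun proteins, was found in 2217 of the 32851 promoters (6.75%). Among the 8 genes it was found for Il6, Cxcl10 and Tnfaip3, but not in the second promoter of Tnfaip3. Such matches are descriptions of the sequence, and no binding was measured in these mice.

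Total counts per mouse were 66.7 to 75.6 M (mega, median 69.8) in the pre-treatment table and 48.8 to 77.2 M (median 55.4) in the delayed table. Low counts did not spread evenly. In the pre-treatment table a count of 4 occurred 10456 times, against 4328 times for 3 and 2283 times for 5, and in the delayed table a count of 4 occurred 15148 times, against 4491 and 2620. The ratio of a count of 4 to the mean of its neighbours was 3.16 and 4.26. Values were therefore read as estimated counts in which 1 sequenced fragment contributes about 4, which corresponds to 16.7 to 18.9 M and 12.2 to 19.3 M fragments per mouse. A count of 4 is thus about 1 fragment, and a count of 0 in a mouse allows up to about 12 counts (3 fragments), counting error alone being considered. All members other than Nfkbia, Tnfaip3 and Ptgs2 sat close to this limit in at least 1 experiment.

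**Figure D1:**
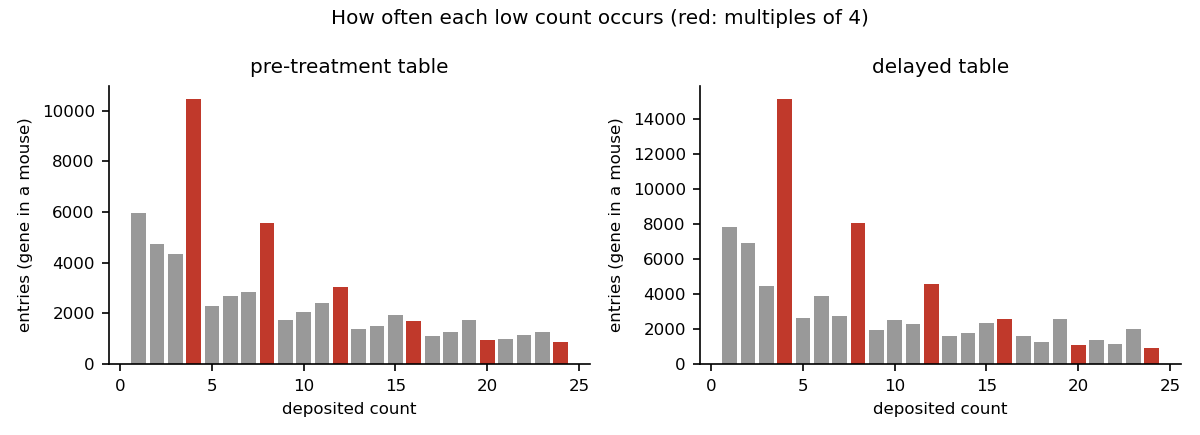
Number of entries (1 gene in 1 mouse, y axis) for each deposited count from 1 to 24 (x axis) in the pre-treatment table (left) and the delayed table (right). Multiples of 4 are red, and the entries at 4, 8 and 12 stand above their neighbours in both tables.

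Levels are compared between genes as FPKM, which is scaled by gene length and library size. In the pre-treatment experiment Nfkbia led with a mean of 13.3 FPKM over the 9 mice (range 8.47 to 17.8), followed by Ccl3 at 0.759 and Tnfaip3 at 0.307. Ptgs2 (0.166), Tnf (0.134), Ccl4 (0.129), Ccl2 (0.105) and Cxcl10 (0.0803) came next, and Il6 (0.0141) and Il1b (0.0123) were lowest. In the delayed experiment Nfkbia was again highest, with a mean of 12.5 FPKM over the 12 mice (range 9.01 to 15.8), followed by Tnfaip3 at 0.369 and Ptgs2 at 0.289. Cxcl10 had 0.0916 FPKM, Ccl3 0.0704, Il1b 0.0648, Ccl4 0.0464 and Ccl2 0.0232, and Il6 (0.0104) and Tnf (0.00259) were lowest. The lowest value of Nfkbia in any mouse was above the highest value of every other member, so its rank does not depend on the spread. The ranges of the lower members overlapped with those of their neighbours in both orders, except for Tnfaip3 and Ptgs2 in the pre-treatment experiment, where every mouse had more Tnfaip3 (0.243 to 0.452 FPKM) than any had Ptgs2 (0.0268 to 0.230). Among the genes tested in each experiment, 86.1% had a lower mean FPKM than Nfkbia in the pre-treatment and 83.8% in the delayed experiment, and no other member was above 34.0%. The labelled tissue held microglia, the cells that make most of these cytokines in the brain. All 15 microglial markers had counts in every group, with summed levels of 283 to 361 counts per M (CPM) in the pre-treatment and 377 to 440 in the delayed experiment.

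**Figure D2:**
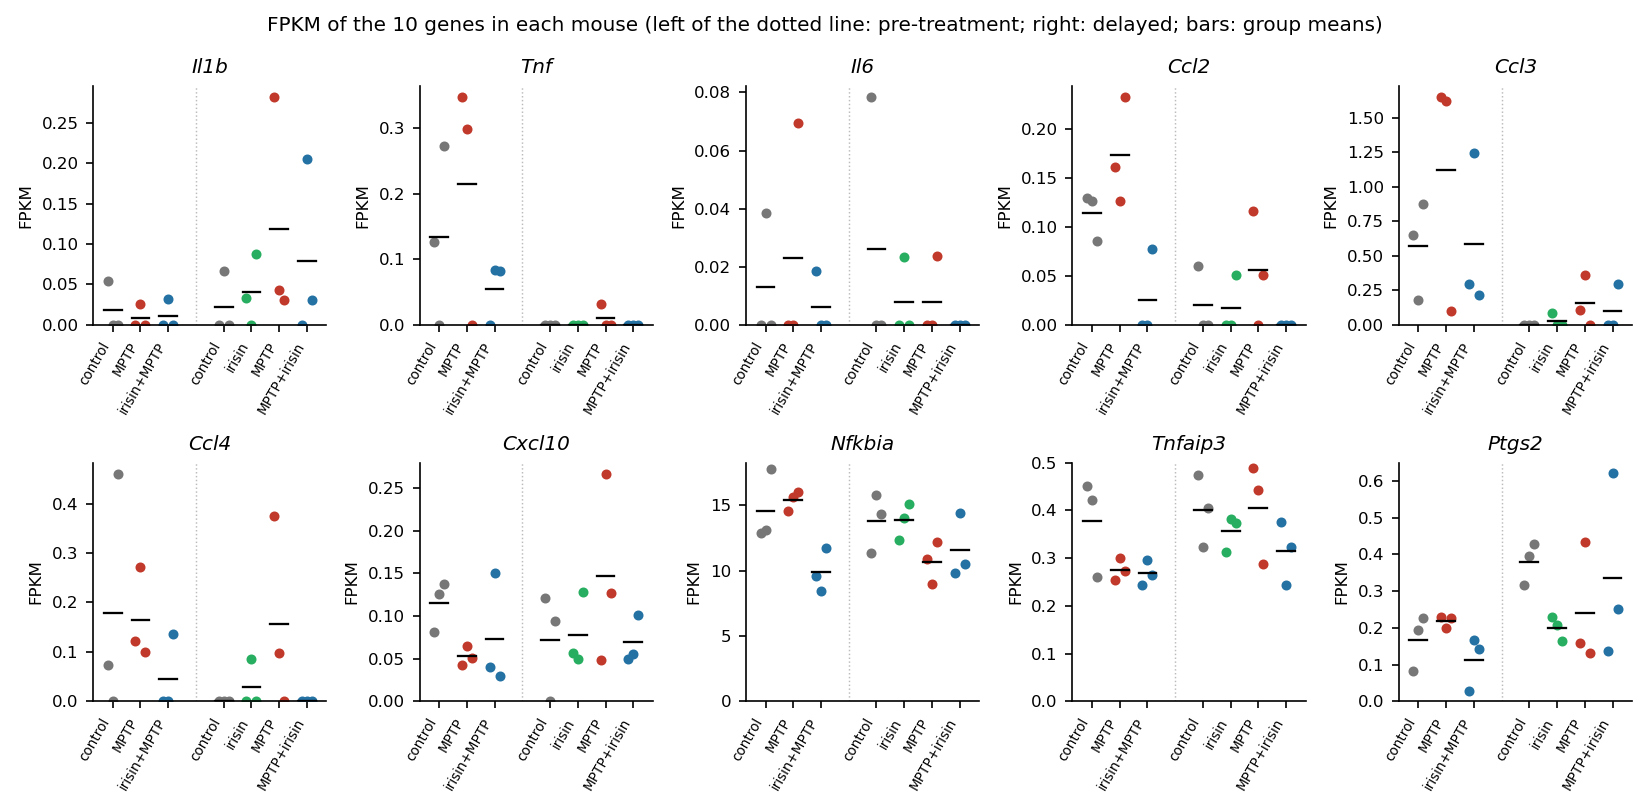
FPKM (y axis, a scale of its own for each gene) of the 10 genes in each of the 21 mice, grouped by treatment (x axis), with the pre-treatment experiment left and the delayed experiment right of the dotted line. Points are mice and bars are group means. Nfkbia lies between 8.47 and 17.8 FPKM in every mouse, and most points of Il1b, Il6 and, in the delayed experiment, of Tnf, Ccl2, Ccl3 and Ccl4 are at or near 0.

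Low counts decided which members could be tested. After the filter on low counts, 22641 genes entered the tests of the pre-treatment experiment, with 7 members (Tnf, Ccl2, Ccl3, Cxcl10, Nfkbia, Tnfaip3 and Ptgs2), and 21922 genes those of the delayed experiment, with 5 members (Il1b, Cxcl10, Nfkbia, Tnfaip3 and Ptgs2). After Benjamini-Hochberg adjustment over all tested genes, 0 members had an adjusted p under 0.05 in any of the 10 comparisons made with edgeR's quasi-likelihood test. Over all tested genes, the share called was 0.0221% for MPTP against control, 0.0707% for irisin pre-treatment against MPTP and 0.0707% for irisin pre-treatment against control. For the delayed comparisons it was 0.132% for MPTP against control, 0.109% for irisin alone against control, 0.00456% for delayed irisin against MPTP, 0.109% for delayed irisin against control and 0.0411% for the interaction of irisin and MPTP. At an unadjusted p under 0.05, 1 member, Nfkbia, passed in 4 of the 10 comparisons and none in the rest. In these 4 comparisons 6.22% (irisin pre-treatment against MPTP), 7.12% (irisin pre-treatment against control), 8.33% (delayed MPTP against control) and 5.69% (difference of the irisin effects) of all tested genes were under it. DESeq2 called 1 member in 1 comparison, which was Nfkbia with irisin pre-treatment against MPTP, and limma on log2 FPKM called 0. In that comparison DESeq2 called 194 of all tested genes (0.857%), against 16 by edgeR. The comparisons within an experiment share their control or MPTP mice and are not independent of each other. P-values by edgeR set a difference against the spread between mice within groups, estimated over all groups of a fit with 3 mice each. An exact permutation test of 3 mice against 3 could not go below 0.1.

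**Figure D3:**
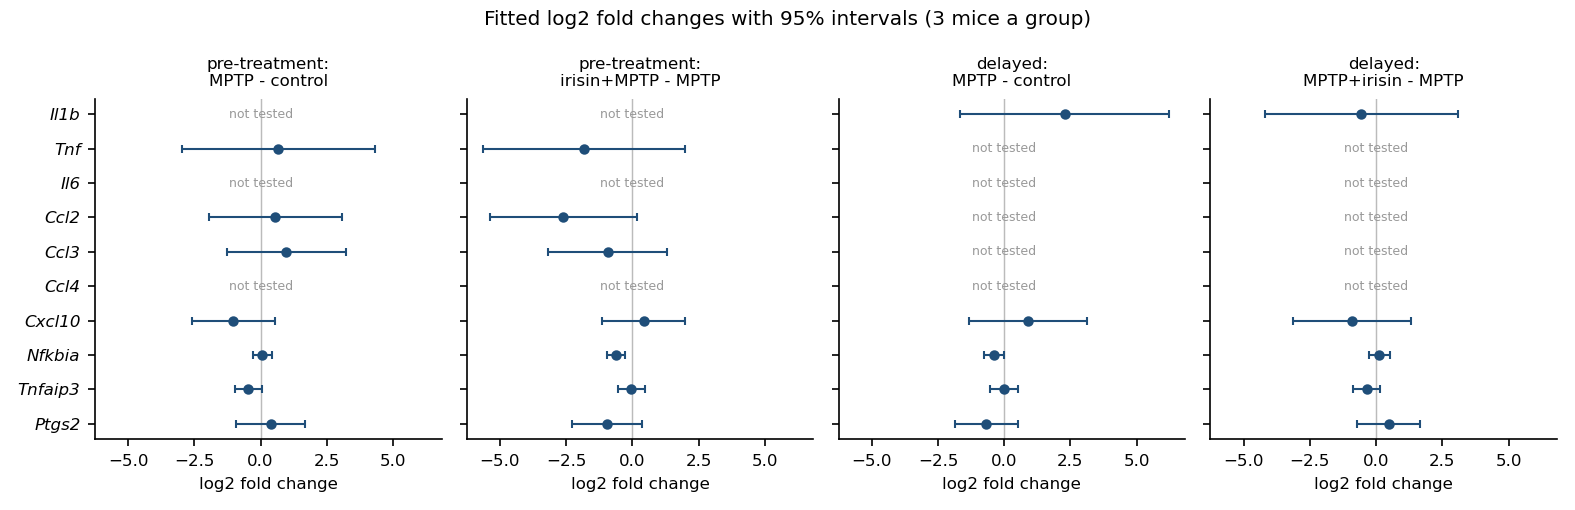
Fitted log2 fold changes (x axis, points) with 95% intervals (lines) of the 10 genes (y axis) in 4 comparisons of 3 mice against 3, given above each panel as first group minus second group. Intervals of Nfkbia and Tnfaip3 are short, those of the cytokines and chemokines span several log2 units, and that of Nfkbia lies wholly below 0 with irisin pre-treatment against MPTP (-0.97 to -0.28) and in the delayed experiment with MPTP against control (-0.78 to -0.01).

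Nfkbia (ENSMUSG00000021025, chr12:55489410-55492647, minus strand), the gene of IkB-alpha, was the member with the most counts and the narrowest error. In the pre-treatment experiment it had counts of 1564, 1653 and 2218 in the control mice. In the MPTP mice it had 1834, 1951 and 2202, and in the irisin pre-treated mice 1283, 1131 and 1545. Every irisin pre-treated mouse was below every MPTP mouse and every control mouse, whereas MPTP and control mice overlapped. As CPM these were 26.6 ± 4.7 in control, 27.9 ± 1.5 in MPTP and 18.1 ± 3.0 in irisin pre-treated mice (mean ± SD, n = 3 each).

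Against MPTP mice, Nfkbia differed by -0.63 on the log2 scale with irisin pre-treatment (SE 0.15, 95% interval -0.97 to -0.28). The unadjusted p was 0.00273 and the adjusted p 0.413 by edgeR's quasi-likelihood test, so the difference did not pass. Its p was number 149 in order among 22641 genes. DESeq2 gave the same difference of -0.63 with an adjusted p of 0.0275, and over the 14 alternatives tried the adjusted p ran from 0.0275 to 0.850 and the difference from -0.76 to -0.52. The unadjusted p was under 0.05 in all 14. Against control mice, Nfkbia differed by -0.56 with irisin pre-treatment (SE 0.15), with an adjusted p of 0.445 by edgeR (0.0797 to 0.848 over 14 alternatives) and an unadjusted p of 0.00547. MPTP against control gave 0.07 (SE 0.15, interval -0.27 to 0.41).

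Other groups of transcripts also had lower levels in the irisin pre-treated mice. The 12 immediate early genes, which are transcribed within minutes of neuronal activity or handling and include Fos, Jun and Egr1, summed to 96.1 to 116 CPM in irisin pre-treated mice, 197 to 248 in MPTP mice and 172 to 251 in control mice. All 12 were lower with irisin pre-treatment than with MPTP in every mouse, and 4 passed edgeR's test, namely Fos (-1.88 log2, adjusted p 0.0210), Jun (-0.67, 0.0195), Atf3 (-3.32, 0.0172) and Btg2 (-1.26, 0.0179), which are named here after their values were seen. Their median difference was -1.18, against 0.003 over all tested genes. The 5 red blood cell markers, 4 of them globin genes, summed to 231 to 455 CPM in irisin pre-treated mice and 549 to 810 in MPTP mice, and each was lower in every irisin pre-treated mouse, with 0 passing edgeR's adjusted threshold and all 5 an unadjusted p under 0.05. None of these markers was at 0 in any group. Over all tested genes, 7.08% were lower in every irisin pre-treated mouse than in every MPTP mouse. At an unadjusted p under 0.05 by edgeR 3.29% were lower, and 0.0574% were called lower. The lists were chosen with earlier results of these data known, so their counts are descriptive. Microglial markers did not separate in this way, with 1 of 15 not overlapping in each direction and a median difference of -0.03. Of the other marker lists, the perivascular macrophages, neutrophils, lymphocytes, endothelial cells, pericytes, astrocytes, oligodendrocytes, dopaminergic neurons and choroid plexus had 0 calls by edgeR in that comparison. At an unadjusted p under 0.05 were 4 of 9 endothelial markers (2 in each direction), 2 of 7 dopaminergic and 2 of 5 choroid plexus markers, 1 astrocytic and 1 macrophage marker. Choroid plexus markers summed to 1637 CPM in 1 MPTP mouse and to at most 44.7 in irisin pre-treated mice. Of 9 glucocorticoid-responsive genes 0 passed edgeR's test and 5 had an unadjusted p under 0.05, 3 of them higher. The part of the immediate early and blood transcripts in the difference of Nfkbia was not tested.

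**Figure D4:**
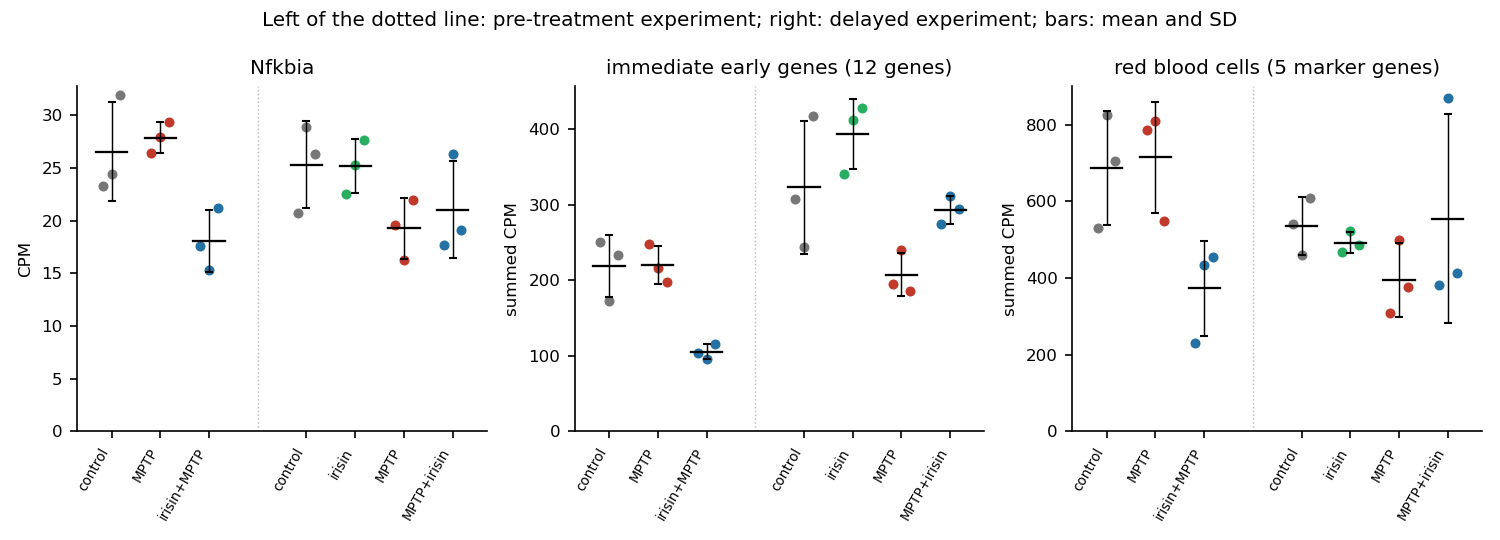
CPM of Nfkbia (left), summed CPM of 12 immediate early genes (middle) and of 5 red blood cell markers (right), all on the y axis, in each mouse by group (x axis). Points are mice, and bars are the mean and SD of 3 mice. In all 3 panels the irisin pre-treated mice are below the MPTP mice of their experiment, and in the delayed experiment the MPTP mice have lower means than the controls.

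In the delayed experiment Nfkbia had counts of 1002, 1507 and 1434 in control mice and 1184, 1512 and 1582 with irisin alone. In the MPTP mice the counts were 1197, 1273 and 1278, and after delayed irisin they were 991, 1341 and 1038. Scaled to library size these were 25.3 ± 4.1 CPM in control, 25.2 ± 2.6 with irisin alone, 19.3 ± 2.9 with MPTP and 21.05 ± 4.6 with delayed irisin (SD, n = 3 each). Both MPTP groups overlapped with each other and with the controls. Mice given irisin alone had 22.5 to 27.7 CPM and MPTP mice 16.2 to 22.0. That pair of groups was not tested, and no share of all genes was computed for it. MPTP mice differed from controls by -0.39 on the log2 scale (SE 0.18, unadjusted p 0.0467, adjusted p 0.589 by edgeR, range over 14 alternatives 0.501 to 0.844). Irisin alone differed from control by -0.01 (SE 0.18), delayed irisin from MPTP by 0.13 (SE 0.18, interval -0.26 to 0.51) and delayed irisin from control by -0.27 (SE 0.18). The immediate early genes were again lower beside it, and summed to 186 to 240 CPM in MPTP mice and 243 to 418 in controls, 11 of 12 were lower, and 1 of them, Btg2, passed edgeR's test, named after its values were seen. All 7 markers of dopaminergic neurons were lower in MPTP mice than in controls (155 to 241 against 290 to 334 summed CPM, median difference -0.58), with 0 past the adjusted threshold of edgeR and 3 with an unadjusted p under 0.05. Of the neutrophil markers tested, 4 of 5 were lower in MPTP mice (1.41 to 2.04 against 3.09 to 5.78 summed CPM). Their part in the difference of Nfkbia was not tested.

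Both experiments were also put in 1 fit over 23364 genes, in which the irisin effect in MPTP mice and the MPTP effect were compared between them. The effect of irisin on Nfkbia in MPTP mice differed by -0.75 between pre-treatment and delayed treatment (SE 0.25, interval -1.27 to -0.23, unadjusted p 0.00740, adjusted p 0.629 by edgeR). It was negative in all 17 alternatives, with adjusted p from 0.281 to 0.869. All tested genes gave 0.077% of calls in that comparison and 0.103% for the difference of the MPTP effects. For Nfkbia the MPTP effects differed by 0.45 (SE 0.25, interval -0.06 to 0.97, unadjusted p 0.0825). Order of treatment, days since MPTP and the sequencing of the experiments cannot be told apart in these comparisons.

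The level of Nfkbia over the mice of an experiment was most like that of Arl4d, a small GTPase of the ARF family, in the pre-treatment experiment (Pearson's r 0.935 and Spearman's rho 0.900 of log2 CPM over 9 mice), followed by Adamtsl3 (r 0.927), Zscan29 (0.927), Pxdc1 (0.922) and Gm12250 (0.916). In the delayed experiment the order was Selenop (r 0.925, rho 0.937, 12 mice), Arl4d (0.911), Wwp1 (0.878), the cell cycle inhibitor Cdkn1a (0.873) and Dlat (0.868). Arl4d was among the 5 most similar genes in both. The points share treatment groups and libraries, so these values are descriptive.

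Tnfaip3 (ENSMUSG00000019850, chr10:19000910-19015410, minus strand), the gene of A20, had counts of 247, 240 and 146 in control, 145, 170 and 169 in MPTP and 147, 178 and 157 in irisin pre-treated mice. Control mice 1 and 2 were above all others, and control mouse 3 lay within the range of the treated groups. The differences were -0.46 for MPTP against control (SE 0.23, unadjusted p 0.0753) and -0.04 for irisin pre-treatment against MPTP (SE 0.23, interval -0.56 to 0.48). In the delayed experiment the counts were 189, 139 and 184 in control, 135, 184 and 177 with irisin alone, 242, 282 and 136 with MPTP and 171, 102 and 144 with delayed irisin, and all groups overlapped. There MPTP against control gave -0.01 (SE 0.24, interval -0.53 to 0.52) and delayed irisin against MPTP -0.36 (SE 0.24, interval -0.89 to 0.17). Beside the -0.63 of Nfkbia with irisin pre-treatment, Tnfaip3 thus had -0.04, and the difference between these feedback genes was not tested.

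Ptgs2 (ENSMUSG00000032487, chr1:150100031-150108227, plus strand) encodes cyclooxygenase-2, which makes the precursor of prostaglandin E2. Its counts were 29, 70 and 81 in control, 83, 72 and 89 in MPTP and 11, 64 and 54 in irisin pre-treated mice. Every irisin pre-treated mouse was below every MPTP mouse, and both overlapped with the controls. With irisin pre-treatment, Ptgs2 differed from MPTP by -0.95 (SE 0.58, interval -2.28 to 0.37, unadjusted p 0.138, adjusted p 0.930 by edgeR). Ptgs2 in the delayed experiment had 80, 108 and 122 counts in control and 63, 64 and 49 with irisin alone, and all irisin mice were below all controls (-0.93 log2, SE 0.55, unadjusted p 0.117). Over all tested genes 15.1% did not overlap in that comparison, and 1 of the 5 members tested did not. With MPTP the counts were 51, 174 and 39 and with delayed irisin 40, 164 and 71, so that replicate 2 was the highest mouse of each of these groups (2.22 and 3.22 CPM, against up to 2.24 in control) and the pair of groups overlapped (0.48 log2, SE 0.54). The interaction of irisin and MPTP was 1.41 (SE 0.77, interval -0.28 to 3.11, unadjusted p 0.0934, adjusted p 0.916 by edgeR).

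Chemokines draw leukocytes to tissue. Ccl2 (ENSMUSG00000035385, chr11:82035571-82037453, plus strand), which attracts monocytes through the receptor Ccr2, had counts of 12, 12 and 8 in control, 15, 12 and 23 in MPTP and 0, 0 and 8 in irisin pre-treated mice. The irisin pre-treated mice did not overlap with MPTP mice in CPM. They were also below the controls, but there the nearest mice had the same count of 8 and differed only by library size (0.110 against 0.115 CPM). The fitted difference from MPTP was -2.61 (SE 1.22, interval -5.38 to 0.17, unadjusted p 0.0629, adjusted p 0.829 by edgeR). On the scale of fragments this is about 13 in the MPTP mice and 2 in the irisin pre-treated mice, a ratio of 6.66. Its exact 95% interval of 1.51 to 60.8 covers counting error only. Against controls, with about 8 fragments, the ratio was 4.28 with an interval of 0.854 to 41.4, which includes 1. Such intervals were computed for no other member, pool the mice of a group and leave out the spread between mice. They are therefore not a test of irisin, and Ccl2 passed the filter on low counts only through the MPTP mice. The fitted difference from MPTP was -7.04 without irisin pre-treated replicate 3, the only mouse of its group with a count, and -2.04 without replicate 1 or 2. Ccl2 in the delayed experiment was at 0 in 8 of 12 mice, and its counts of 4 in control, 4 with irisin alone, 10 and 4 with MPTP and none with delayed irisin are at or under the limit that a count of 0 allows.

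With irisin pre-treatment against MPTP, 3 of the 7 tested members (Ccl2, Nfkbia and Ptgs2) did not overlap, all lower, beside 14.2% of all tested genes in either direction and 7.08% lower. Against control, 2 of 7 (Ccl2 and Nfkbia) did not overlap, beside 13.6%. For MPTP against control it was 1 of 7 (Cxcl10, with counts of 8 to 12 against 14 to 24), beside 11.6%. Ccl2 passed the filter on low counts only through the MPTP mice, where it was highest, so its place in these counts was partly set by the filter. The median difference of the 7 tested members was -0.93 for irisin pre-treatment against MPTP and 0.37 for MPTP against control, with 6 of 7 negative and 5 of 7 positive, and both rest on low counts for most members and share the MPTP mice.

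Ccl3 (ENSMUSG00000000982, chr11:83647844-83649355, minus strand) and Ccl4 (ENSMUSG00000018930, chr11:83662584-83664683, plus strand) are neighbouring genes whose products microglia release on activation. Ccl3 had 38, 11 and 52 counts in control, 99, 97 and 7 in MPTP and 19, 79 and 14 in irisin pre-treated mice. MPTP mice 1 and 2 were the highest of the experiment and the third MPTP mouse the lowest, so the groups overlapped (0.97 for MPTP against control, SE 0.99, and -0.93 for irisin pre-treatment against MPTP, SE 0.99). Ccl4 had 4, 0 and 24 counts in control, 7, 14 and 6 in MPTP and 0, 0 and 8 in irisin pre-treated mice and did not pass the filter. Delayed control mice all had Ccl3 at 0, and the counts were 4, 0 and 0 with irisin alone, 6, 25 and 0 with MPTP and 0, 0 and 14 with delayed irisin. Its counts were thus above 0 in every mouse of the pre-treatment experiment and in 4 of 12 of the delayed experiment, and the levels of the tables were not tested against each other. Ccl4 had counts in 3 of the 12 delayed mice, which were 4 with irisin alone and 17 and 6 with MPTP.

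Cxcl10 (ENSMUSG00000034855, chr5:92346638-92348882, minus strand), an interferon-inducible chemokine that attracts T cells through Cxcr3, had 14, 23 and 24 counts in control, 8, 12 and 11 in MPTP and 8, 29 and 6 in irisin pre-treated mice. MPTP mice were all below control mice (-1.03 log2, SE 0.69, unadjusted p 0.168 by edgeR), and irisin pre-treated mice spanned both. The counts of the MPTP mice are at or under the 12 that a count of 0 allows, and the nearest control had 14. After delayed treatment it had 16, 0 and 16 counts in control, 9, 8 and 19 with irisin alone, 8, 55 and 19 with MPTP and 9, 8 and 16 with delayed irisin. MPTP replicate 2 alone exceeded the other mice, and the groups overlapped (0.89 for MPTP against control, SE 1.01). The sign of the MPTP difference was thus opposite in the experiments, and the difference of -1.94 between them had an SE of 1.28 and an unadjusted p of 0.150. Interferon-stimulated genes, fixed as a list of 12, had 0 calls by edgeR in the 2 comparisons of irisin pre-treatment against MPTP and of delayed MPTP against control, with 0 at an unadjusted p under 0.05 in both.

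Among all members, the cytokines Il6 and Il1b were lowest in the pre-treatment experiment, and Il6 and Tnf in the delayed experiment. Tnf (ENSMUSG00000024401, chr17:35199381-35202007, minus strand), a ligand that activates NF-kB, had 16, 0 and 35 counts in control, 45, 38 and 0 in MPTP and 0, 12 and 12 in irisin pre-treated mice. A mouse at 0 was present in each group, and the differences were 0.67 for MPTP against control (SE 1.60) and -1.84 for irisin pre-treatment against MPTP (SE 1.68, interval -5.66 to 1.97). Among the delayed mice Tnf was at 0 in 11 of 12 mice and had 4 counts in MPTP replicate 1. Il1b (ENSMUSG00000027398, chr2:129364570-129371139, minus strand), which encodes interleukin-1 beta, was above 0 in only 3 pre-treatment mice, with 8 counts in a control, 4 in an MPTP and 5 in an irisin pre-treated mouse. Il1b in the delayed experiment had 0, 8 and 0 counts in control, 4, 0 and 11 with irisin alone, 37, 8 and 4 with MPTP and 0, 23 and 4 with delayed irisin. The difference of 2.28 between delayed MPTP mice and controls (SE 1.79, interval -1.67 to 6.23, unadjusted p 0.229) rested largely on 1 mouse. Without MPTP replicate 1, the difference of delayed irisin from MPTP turned from -0.56 to 1.004. Il6 (ENSMUSG00000025746, chr5:30013114-30019981, plus strand) had counts of at most 15 in any mouse, was at 0 in 6 of 9 and 9 of 12 mice, and was not tested in either experiment or in the joint fit. Il6, Ccl4 and, in the delayed experiment, Tnf, Ccl2 and Ccl3 did not pass the filter, so their differences within an experiment were not tested.

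The wider pathway was read from lists of genes that act around the members. Of 31 genes of the NF-kB signaling core (subunits, IkB kinases, adaptors and deubiquitinases), all 31 were tested in both experiments and 0 passed edgeR's test with irisin pre-treatment against MPTP, where 3 had an unadjusted p under 0.05, all lower. The smallest p-values in that comparison were those of Traf3 and Traf6, adaptors downstream of TNF family and Toll-like receptors. Traf3 had 53.3, 84.1 and 27.6 CPM in MPTP mice, 19.1, 20.5 and 13.7 in control and 24.1, 16.2 and 18.4 in irisin pre-treated mice. All MPTP mice were above all others, and irisin pre-treatment against MPTP gave -1.49 (SE 0.36, unadjusted p 0.00276, adjusted p 0.414 by edgeR). Traf3 in the delayed experiment had 41.7 to 83.3 CPM in MPTP mice and 23.1 to 36.4 in control (0.996, SE 0.59, unadjusted p 0.119), and 1 mouse given irisin alone had 97.9. Traf6 differed by -0.31 with irisin pre-treatment against MPTP (SE 0.09, adjusted p 0.578 by edgeR).

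Among 15 receptors, 14 were tested with irisin pre-treatment against MPTP, 0 passed edgeR's test and 2 had an unadjusted p under 0.05. Ptger1, the EP1 receptor for prostaglandin E2, had 5.10, 4.68 and 3.802 CPM in control, 1.40, 1.13 and 2.06 in MPTP and 3.32, 3.49 and 4.68 in irisin pre-treated mice. MPTP mice were below both other groups, which overlapped. The differences were -1.56 for MPTP against control (SE 0.26, unadjusted p 0.000210, adjusted p 0.274 by edgeR) and 1.32 for irisin pre-treatment against MPTP (SE 0.26, unadjusted p 0.000654, adjusted p 0.212), so neither passed. For Ptger1, MPTP against control gave 0.01 in the delayed experiment (SE 0.69). Il6st, the signaling subunit gp130 of the interleukin-6 receptor, differed by -0.24 with irisin pre-treatment against MPTP (SE 0.07, adjusted p 0.548 by edgeR).

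Of 17 other cytokines and chemokines, 11 were tested in that comparison, with 0 calls by edgeR and 0 at an unadjusted p under 0.05. Csf1, a survival factor of microglia, had the smallest p, with 27.2, 28.0 and 25.3 CPM in MPTP, 30.0, 32.6 and 30.5 in control and 29.3, 31.9 and 29.3 in irisin pre-treated mice (0.17 against MPTP, SE 0.08). Cxcl2 followed, with -3.42 (SE 1.78) on CPM of 0.720, 0.501 and 0 in MPTP mice. Of the 8 genes around prostaglandin synthesis all were tested and 0 passed edgeR's test, with none at an unadjusted p under 0.05 in that comparison. Ptges3 (-0.15, SE 0.09) and Ptgds (0.25, SE 0.19) had the smallest p-values. For delayed MPTP against control, Cxcl1 of the other chemokines was lower in every MPTP mouse (-2.60, SE 0.61). Its unadjusted p was 0.00129 and its adjusted p 0.259 by edgeR, so it did not pass. Ccl7 (1.28, SE 1.64) and Cxcl12 (0.34, SE 0.17) were higher in every MPTP mouse. Over all tested genes 16.2% did not overlap there.

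Zfp36 was the gene of the adhesion and other NF-kB target list that passed the test. It encodes tristetraprolin, a protein that binds AU-rich elements and speeds the decay of Tnf and other cytokine mRNAs, and it is also an immediate early gene. Delayed control and MPTP mice differed in Zfp36, with 18.3, 14.3 and 28.9 CPM in control and 6.25, 5.82 and 7.76 in MPTP mice. With delayed irisin it had 10.99, 14.95 and 15.5 CPM and with irisin alone 22.1, 27.1 and 31.7. MPTP mice were below every other group, and the difference from control was -1.63 (SE 0.25, adjusted p 0.0361 by edgeR's quasi-likelihood test). Delayed irisin differed from MPTP by 1.06 (SE 0.25, unadjusted p 0.00131, adjusted p 0.9995 by edgeR), which did not pass. In the pre-treatment experiment Zfp36 had 4.01, 6.80 and 6.73 CPM in control, 11.2, 7.77 and 6.45 in MPTP and 4.48, 4.67 and 4.90 in irisin pre-treated mice. The MPTP difference there was 0.54 (SE 0.25) and that of irisin pre-treatment against MPTP -0.86 (SE 0.25, unadjusted p 0.00839, adjusted p 0.560 by edgeR). The other 11 tested genes of that list had 0 calls in delayed MPTP against control.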

How the data were processed

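RNA-seq of nigral tissue, labelled midbrain, was made by the study from 21 mice on an Illumina NovaSeq. The deposited tables hold a count and an FPKM value per gene and mouse. The authors name featureCounts and the submitters' processing notes name HISAT, StringTie, edgeR and mm9, whereas the gene coordinates are those of GRCm38. Versions and the use of strand are not given in the sources used here. Because low counts pile up near multiples of 4, the value that the authors deposited was taken to be an estimated count (1 fragment adds about 4), although the design had assumed raw counts. They were used as whole numbers, as deposited. FPKM was used as the authors deposited it, for levels and for limma.

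The tests used edgeR 4.0.16 under R 4.3.3 (filterByExpr, least count 10, least total 15, TMM scaling, quasi-likelihood, two-sided), each experiment in 1 fit, and both in a joint fit over 33622 shared gene IDs for 2 differences of effects. P-values were adjusted over all tested genes with the Benjamini-Hochberg method at 0.05. The fits were tested on simulated data. Standard errors are the log2 fold change divided by the root of edgeR's F, and 95% intervals use the t distribution. DESeq2 1.42.0, limma 3.58.1 on log2(FPKM + 1) and log2(FPKM + 0.1), RLE scaling, no filter, only the compared groups, a replicate block, leaving out each mouse and, added after seeing the data, counts divided by 4 were the alternatives. Total counts of 48.8 to 77.2 M per mouse, read as about 12.2 to 19.3 M fragments, limit the precision of low members. Sequences are from RefSeq (GRCm38.p6), and figures were drawn with matplotlib 3.10.9 in Python 3.11.15. Mice were grouped by label. Samples of a group differed beyond sampling noise in all 21 pairs.

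All 10 members were named. Of the pathway lists, every gene with an adjusted p under 0.05 in any comparison was named, or else the 2 genes with the smallest p with irisin pre-treatment against MPTP. The 5 genes most correlated with Nfkbia per experiment were also named. Cxcl1, Ccl7 and Cxcl12 were named after their values were seen. Members and lists were chosen with earlier results of these data known. Marker lists of other cell types were given by counts and summed CPM.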

Additional observations from a re-analysis of the deposited data

Results flagged for a closer look

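The fitted MPTP difference of Zfp36 was unlike in the 2 experiments, and that of the pre-treatment experiment alone (0.54, adjusted p 0.828 by edgeR) did not pass. Its MPTP effect was 2.16 higher on the log2 scale in the pre-treatment than in the delayed experiment (SE 0.37, adjusted p 0.0258 by edgeR in the joint fit). All 3 delayed MPTP mice were below all delayed controls, whereas in the pre-treatment experiment 2 of the 3 MPTP mice were above all controls and the other lay among them. The irisin effects on Zfp36 in MPTP mice differed by -1.91 (SE 0.37, adjusted p 0.0885), which did not pass. Delayed controls had 14.3 to 28.9 CPM of Zfp36 and pre-treatment controls 4.01 to 6.80, beside 5.82 to 7.76 in delayed MPTP mice. Levels were not tested between experiments, and days since MPTP and the sequencing of the experiments cannot be told apart here.

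Of the 12 immediate early genes, 5 were lower in the difference of the irisin effects in MPTP mice, with pre-treatment minus delayed treatment, at an adjusted p under 0.05 by edgeR, and 0 were higher. They were Fos (-2.36), Jun (-0.82), Ier2 (-2.07), Dusp1 (-2.07) and Btg2 (-2.53 on the log2 scale), named after their values were seen. All 12 had a negative difference, with a median of -1.88 against 0.009 over all tested genes. Of all tested genes 0.0642% were called lower there, and the list was chosen with earlier results of these data known. In the difference of the MPTP effects 1 of the 12, Btg2 (2.02), was higher at that threshold and 0 were lower. For Nfkbia these differences were -0.75 and 0.45, and neither passed.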

How the results depend on the processing

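No member passed the adjusted threshold under any alternative except with DESeq2, where 1 (Nfkbia, irisin pre-treatment against MPTP) did, and the cause was not tested. Differences of the tested members were recomputed, but from the joint fit only those of Cxcl10, Nfkbia, Tnfaip3 and Ptgs2 were counted. Of 800 such differences, 762 kept their direction and their side of the threshold and 37 changed sign, 27 of them on leaving out a mouse. The other sign changes were small or in low members. Ccl3 with irisin pre-treatment against control went to -0.49 with the replicate block, -0.0169 with limma on log2(FPKM + 1) and -0.10 on log2(FPKM + 0.1). Tnfaip3 in delayed MPTP against control went to 0.00758 with no filter, 0.00438 on log2(FPKM + 1) and 0.00460 on log2(FPKM + 0.1). Nfkbia with irisin alone went to 0.0115 on log2(FPKM + 1) and 0.0128 on log2(FPKM + 0.1), and Cxcl10 in delayed irisin against control to 0.00374 with the block and 0.0428 on log2(FPKM + 0.1). Leaving out a mouse gave ranges that cross 0 for Nfkbia in pre-treatment MPTP against control (-0.0224 to 0.22), irisin alone (-0.13 to 0.10), delayed irisin against MPTP (-0.0634 to 0.24) and the interaction (-0.0557 to 0.26). They also did so for Cxcl10 with irisin pre-treatment against MPTP (-0.58 to 0.79), irisin alone (-0.55 to 0.52) and delayed irisin against control (-0.61 to 0.46), and for Tnfaip3 with irisin pre-treatment against MPTP (-0.11 to 0.0212) and delayed MPTP against control (-0.16 to 0.19). The same held for Ccl3 with irisin pre-treatment against control (-1.12 to 0.48), for Ptgs2 with delayed irisin against MPTP (-0.30 to 1.21) and control (-0.97 to 0.19), and for Il1b with irisin alone (-0.44 to 5.39), delayed irisin against MPTP (-2.74 to 1.004) and control (-0.46 to 6.34) and the interaction (-5.95 to 0.23). Ccl2 with irisin pre-treatment kept its sign, at -7.04 to -2.04 against MPTP and -6.49 to -1.49 against control. Outside the 800, Ccl3 kept its sign in 10 of 17 alternatives for the difference of the irisin effects. There Il1b kept it in 15, and Ccl2 and Tnf in 16. For the difference of the MPTP effects it was 17 for Ccl3 and 16 for Il1b, Ccl2 and Tnf.

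Mice with the same replicate number deviated little together from their group means (r -0.08 to 0.10 over 9 pairs and -0.08 to 0.04 over 18 pairs). Mice with different numbers had r of -0.11 to 0.14 over 18 pairs and -0.07 to 0.08 over 36 pairs. The main fits did not use the number as a pairing, and a small shared effect would not be seen in this way. With the replicate number as a block, 0 members passed and Nfkbia with irisin pre-treatment against MPTP was -0.64 (adjusted p 0.318). Over all genes DESeq2 called 194 against 16 by edgeR for irisin pre-treatment against MPTP, 104 against 5 for MPTP against control, 216 against 16 for irisin pre-treatment against control, and 191 against 29 for delayed MPTP against control. For irisin alone it was 158 against 24, for delayed irisin 31 against 1 (from MPTP) and 157 against 24 (from control), for the interaction 64 against 9, and for the differences of MPTP and irisin effects 79 against 24 and 73 against 18. Against 1 to 29 calls by edgeR over the 10 comparisons, the block gave 1 to 17 (8 in place of 16 for irisin pre-treatment against MPTP), the other settings 1 to 28 and leaving out a mouse 1 to 35. Depth limits the cytokines and chemokines, which mostly had few fragments per mouse.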
